A study of Mus musculus with 18 samples.

Results

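Troponin and tropomyosin are the regulatory proteins of the thin filament, the actin strand of the sarcomere. Troponin T (TnT) ties the troponin complex to tropomyosin, troponin I (TnI) holds the filament inactive at low calcium, and troponin C (TnC) binds calcium and releases that hold. Tropomyosin lies along actin and covers or uncovers the sites where myosin binds. In the mouse heart, slow skeletal TnI and more β-tropomyosin are found before birth, and cardiac TnI and α-tropomyosin predominate in the adult. The 9 genes described here were chosen by name and found by their Ensembl identifiers through GENCODE M21: Tnnt2, Tnnt1, Tnni3, Tnni1, Tnnc1, Tpm1, Tpm2, Tpm3 and Tpm4, which are 9 of the 49315 genes in each count table. All 9 passed the filter on low counts and were among the 15778 genes tested.

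Tissue was the mid wall of the left ventricle, taken at 3, 6 and 10 weeks of age from males of the 129SVE strain background. At each age there were 3 libraries labelled wild type (WT) and 3 labelled MLP KO (KO), which makes 18 libraries in 6 groups. MLP, or muscle LIM protein, is encoded by Csrp3 and sits at the Z-disc of striated muscle, and mice that lack it are used as a model of dilated cardiomyopathy. The comparison asks how expression in KO differs from age-matched WT as the disease progresses. The labels do not say how the allele was made or whether replicates came from separate animals, so p-values measure the spread between these libraries only.

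Library totals ran from 14980968 to 23001047 counts. Mitochondrially encoded genes took 11.0% to 16.8% of all counts in WT and 7.499% to 10.9% in KO, so that this share separated the genotypes in all 18 libraries. Its part in the genotype results was not tested beyond a fit without those genes, in which 5, 6 and 3 members were called at 3, 6 and 10 weeks. Csrp3, the gene named as knocked out, was not lower in KO (951 to 1486 CPM in WT and 1134 to 3416 CPM in KO). Its log2 fold changes were 0.80, 0.57 and 1.29 by increasing age, of which the last was called higher (adjusted p = 0.0041), so this gene did not check the labels, and a direction given below is that of the libraries labelled KO against those labelled WT. All 10 cardiomyocyte markers were present in every group, with summed levels of 61807 to 87597 CPM (counts divided by the TMM-scaled library total, as edgeR gives them) in WT and 80240 to 112007 CPM in KO. The 3 KO libraries with over 50 CPM of the atrial light chain gene Myl4, 1 at each age (118, 436 and 1145 CPM), stood apart from all others (at most 23.2 CPM). The tests of the members and of the isoform ratios were therefore repeated without them. The counts for gene lists and markers, the shares and the likeness of profiles were not. In bulk tissue, fewer cells of a type and less RNA per cell cannot be told apart.

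Of the 5 isoform ratios compared below, the one that moved most between WT and KO, averaged over the 3 ages, was that of the tropomyosin pair Tpm2 (β-tropomyosin, chr4:43514711-43523765, minus strand) to Tpm1 (α-tropomyosin, chr9:67022590-67049406, minus strand), both on GRCm38. The promoter stretches of this pair are shown because the level of a transcript begins there. Each runs 5′ to 3′ from 250 bases before to 50 bases after the start in RefSeq on GRCm38.p6, at chr4:43523505-43523804 for Tpm2 and at chr9:67049164-67049463 for Tpm1. Capitals mark an MCAT motif, searched as CATTCC on both strands:
Tpm2: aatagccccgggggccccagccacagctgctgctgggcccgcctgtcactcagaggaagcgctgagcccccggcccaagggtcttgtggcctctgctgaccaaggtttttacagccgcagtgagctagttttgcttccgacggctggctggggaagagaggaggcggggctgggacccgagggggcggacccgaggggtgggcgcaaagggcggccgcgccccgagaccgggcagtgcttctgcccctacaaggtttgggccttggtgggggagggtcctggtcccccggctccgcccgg
Tpm1: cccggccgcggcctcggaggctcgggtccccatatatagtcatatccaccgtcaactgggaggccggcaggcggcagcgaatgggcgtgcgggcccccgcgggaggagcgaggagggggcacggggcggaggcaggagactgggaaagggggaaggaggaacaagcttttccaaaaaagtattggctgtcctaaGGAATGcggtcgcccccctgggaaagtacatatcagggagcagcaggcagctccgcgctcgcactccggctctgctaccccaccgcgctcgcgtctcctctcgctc
The Tpm1 stretch held 1 MCAT match, on the opposite strand at -56, and the Tpm2 stretch held none. MCAT is the element bound by TEAD factors, and 14.7% of the 32851 RefSeq promoters of this length held it. Among the other members, the first promoter of Tnnt2 (-27) and that of Tnnc1 (-58, opposite strand) held MCAT. The GATA motif searched was AGATAA, found in 11.2% of promoters. It was at -166 on the opposite strand in the first Tnnt2 promoter and at -32 in the first Tpm3 promoter. The TATA box, searched with the letters TATAAA and found in 13.6% of promoters, was at -30 in Tnnt1. Neither the CArG box (1.63%) nor the MEF2 site (3.19%) matched in any member. All 9 genes had a RefSeq promoter. A match is a description of letters and not a site of binding.

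Levels between genes were compared as CPM per kilobase of exon, with the union of all annotated exons of a gene as its length. That union was 7752 bases for Tnnt2, 6485 for Tpm1, 2063 for Tnni3 and 1041 for Tnnc1, and the transcripts expressed can be shorter. Orders, shares and ratios between genes depend on this divisor. In CPM without it, Tnnt2 (10700) and Tpm1 (10236) were above Tnnc1 (2686) in WT at 3 weeks. In WT at 3 weeks Tnnc1 was highest, at 2581 ± 382 CPM per kb (SD, n = 3). Tpm1 (1578 ± 123), Tnni3 (1502 ± 163) and Tnnt2 (1380 ± 148) followed, and each of these 3 overlapped its neighbour in the order. The remaining genes lay far below: Tpm4 at 59.1 ± 4.80, Tpm3 at 8.59 ± 0.129, Tnnt1 at 6.998 ± 0.697, Tpm2 at 5.90 ± 0.911 and Tnni1 at 0.0954 ± 0.0456 CPM per kb. Of these, Tnnt1 and Tpm2 overlapped. The adult cardiac genes for TnC, TnI, TnT and tropomyosin thus formed 1 block, and Tnni1, the slow skeletal and foetal TnI, was lowest in all 6 groups.

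The same order held at 6 and 10 weeks in WT apart from exchanges among Tnni3, Tnnt2 and Tpm1 and between Tnnt1 and Tpm3. In KO, Tpm2 moved from the eighth place that it held at each age in WT to place 6 at 3 weeks and place 5 at 6 and 10 weeks. It then stood at 36.4 ± 6.38, 71.6 ± 8.37 and 131 ± 18.2 CPM per kb at the 3 ages, above Tpm4 (29.5 ± 1.60 and 33.3 ± 9.15) at 6 and 10 weeks. The top block changed its order as well: Tnni3 was at place 4 in KO at every age, below Tnnt2 and Tpm1, with no overlap between neighbours.

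**Figure D1:**
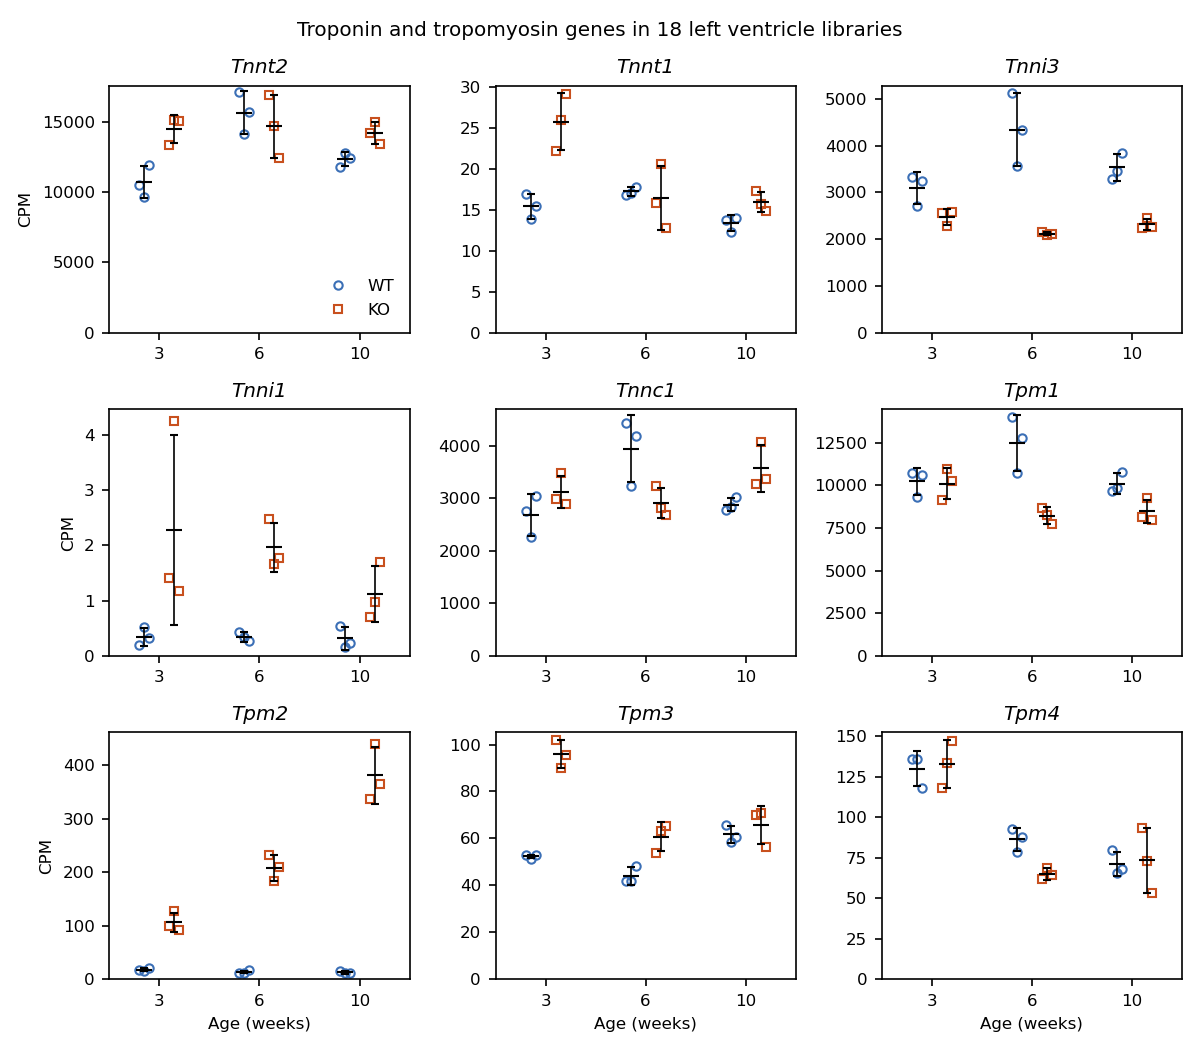
CPM (vertical axes from 0, scaled per gene) of the 9 genes against age in weeks; circles are WT libraries, squares KO libraries, and black bars the mean ± SD of 3 libraries. Tpm2 separates the genotypes at all 3 ages (at most 19.95 CPM in WT and at least 91.7 CPM in KO), whereas the lowest library holds 9655 CPM of Tnnt2 and 7726 CPM of Tpm1.

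KO against WT, 5 of the 9 genes passed the test at 3 weeks, 7 at 6 weeks and 3 at 10 weeks (edgeR quasi-likelihood test, Benjamini-Hochberg adjusted p under 0.05 over all genes tested). At 3 weeks all 5 were higher in KO, against 15.3% of all genes called, 8.65% higher and 6.68% lower. At 6 weeks 3 were higher and 4 lower, against 23.8% of all genes called, 11.0% higher and 12.8% lower. At 10 weeks 2 were higher and 1 lower, against 29.3% of all genes called, 14.6% higher and 14.7% lower, so the share of members called then was close to the background. The groups did not overlap for 6, 7 and 7 of the 9 genes, against 30.5%, 44.2% and 40.5% of all genes. The members' median log2 fold change was 0.44, -0.09 and 0.20 at the 3 ages, beside 0.00, 0.00 and -0.03 over all genes tested. Tpm2 and Tnni1 were higher in KO at each age. Tnni3 was lower in KO at 6 and 10 weeks. The comparisons of ages and genotypes below share groups of libraries, and each is given with its own values.

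**Figure D2:**
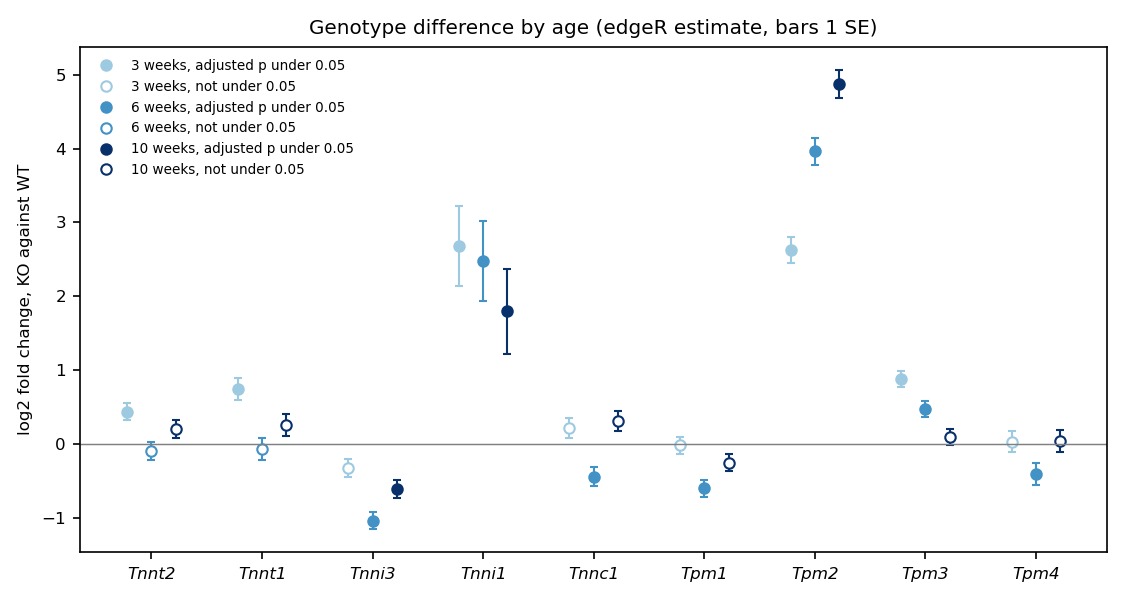
Log2 fold change of KO against WT for the 9 genes at 3, 6 and 10 weeks (vertical axis, edgeR estimate; bars 1 SE; 3 libraries per group). Filled points have an adjusted p under 0.05. Tpm2 stands at 2.63, 3.96 and 4.87, and Tnni3 at -0.32, -1.04 and -0.61.

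Tnnt2 (cardiac TnT, chr1:135836354-135852260, plus strand) was higher in KO at 3 weeks and not called at the later ages. Its WT libraries at 3 weeks held 10519, 9655 and 11925 CPM, and its KO libraries 13339, 15132 and 15039 CPM. The groups did not overlap. The log2 fold change was 0.44 (SE 0.12, adjusted p = 0.016), and the call was lost without WT replicate 1 (adjusted p = 0.058), without WT replicate 2 (0.079) or without KO replicate 2 (0.051). At 6 weeks WT held 17167, 14134 and 15699 CPM and KO 16904, 14694 and 12455 CPM, groups that overlapped (-0.09, SE 0.12, adjusted p = 0.63). In the oldest mice WT held 11817, 12790 and 12433 CPM and KO 14189, 15010 and 13415 CPM. All 3 KO libraries were then above WT, with a fold change that did not pass (0.20, SE 0.12, adjusted p = 0.22).

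Tnnt1 encodes the TnT of slow skeletal muscle and lies next to Tnni3 on chromosome 7 (chr7:4504570-4516382, minus strand), 1923 bases away. At 3 weeks its WT libraries held 16.9, 13.9 and 15.5 CPM and its KO libraries 22.2, 25.9 and 29.2 CPM, with no overlap (log2 fold change 0.74, SE 0.15, adjusted p = 0.0015). At 6 weeks the 3 WT libraries, from 16.9 to 17.8 CPM, lay within the KO range of 12.8 to 20.6 CPM (-0.07, SE 0.15, adjusted p = 0.79). At 10 weeks WT held 12.3 to 14.1 CPM and KO 14.8 to 17.3 CPM (0.25, SE 0.15, adjusted p = 0.23). Per exon length Tnnt1 made up 0.330% to 0.679% of summed troponin T in every library, so Tnnt2 carried nearly all troponin T counts in both genotypes.

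Tnni3 (cardiac TnI, whose N-terminal extension is a target of protein kinase A, chr7:4518305-4524229, minus strand) was lower in KO at 6 and 10 weeks. At 6 weeks WT held 5127, 3563 and 4341 CPM and KO 2152, 2086 and 2109 CPM. The 3 KO libraries lay close together and far below WT (log2 fold change -1.04, SE 0.12, adjusted p = 1.8e-06). By 10 weeks WT held 3288, 3470 and 3847 CPM and KO 2234, 2448 and 2266 CPM, again with no overlap (-0.61, SE 0.12, adjusted p = 0.00055). At 3 weeks WT held 3339, 2714 and 3242 CPM and KO 2570, 2277 and 2577 CPM. The KO libraries were again all below WT, but the difference did not pass (-0.32, SE 0.12, adjusted p = 0.072). It passed with upper quartile normalization (adjusted p = 0.036) and with DESeq2 (0.045). Tnni3 shares 86 exon bases with its neighbour Dnaaf3 on the same strand, and 1.69% of its 50-base words occur there.

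Tnni1 (slow skeletal TnI, the chief TnI of the foetal heart, chr1:135779434-135810989, plus strand) was scarce in every library. In WT it held 0.194, 0.519 and 0.317 CPM at 3 weeks, 0.440, 0.342 and 0.262 CPM at 6 weeks and 0.542, 0.168 and 0.232 CPM at 10 weeks, which were 3 to 11 reads per library. In KO it held 1.40, 4.26 and 1.17 CPM, then 2.48, 1.66 and 1.77 CPM, and then 0.702, 0.967 and 1.69 CPM, or 10 to 76 reads. Every KO library was above every WT library, and the second KO library at 3 weeks was highest. The log2 fold change was 2.68 (SE 0.54, adjusted p = 0.0018), 2.48 (SE 0.54, adjusted p = 0.0018) and 1.79 (SE 0.58, adjusted p = 0.023) at 3, 6 and 10 weeks. Without KO replicate 2, the highest, the 3-week value was 1.88 (adjusted p = 0.022), and without WT replicate 1 the 10-week value was 2.46 (adjusted p = 0.015). The 10-week call was lost without KO replicate 3 (adjusted p = 0.11), WT replicate 2 (0.094) or WT replicate 3 (0.078). Per exon length Tnni1 was at most 0.107% of summed troponin I in any library. Almost all troponin I counts came from Tnni3 in both genotypes, and the summed troponin I level followed Tnni3, at 2106 ± 379 CPM per kb in WT and 1026 ± 16.3 in KO at 6 weeks (SD, n = 3).

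Tnnc1 encodes the calcium-binding TnC that the heart shares with slow skeletal muscle (chr14:31208312-31211729, plus strand). At 3 weeks WT held 2764, 2255 and 3040 CPM and KO 2985, 3480 and 2901 CPM, and the groups overlapped (log2 fold change 0.22, SE 0.13, adjusted p = 0.30). At 6 weeks WT held 4429, 3232 and 4183 CPM and KO 3225, 2812 and 2683 CPM. The WT libraries were all above KO, the nearest pair at 3232 and 3225 CPM (-0.44, SE 0.13, adjusted p = 0.019), and the call was lost when WT replicate 1 (adjusted p = 0.11), WT replicate 3 (0.085), KO replicate 2 (0.068) or KO replicate 3 (0.086) was left out. Without the 3 Myl4-rich libraries it was lost as well (-0.38, adjusted p = 0.086). In 10-week-old mice WT held 2783, 2837 and 3026 CPM and KO 3275, 4081 and 3360 CPM, the reverse order, with a difference that did not pass (0.31, SE 0.13, adjusted p = 0.087) except with DESeq2 (0.046) or without KO replicate 1 (0.043).

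Tpm1, the gene of the main tropomyosin of the adult ventricle, was lower in KO at 6 weeks. WT then held 13988, 10732 and 12785 CPM and KO 8685, 8275 and 7726 CPM, with no overlap (log2 fold change -0.60, SE 0.11, adjusted p = 0.00049). At 3 weeks WT held 10755, 9318 and 10635 CPM and KO 9125, 10942 and 10259 CPM, which overlapped on both sides (-0.02, SE 0.11, adjusted p = 0.94). At 10 weeks WT held 9678, 9830 and 10815 CPM and KO 8171, 9257 and 7990 CPM. The KO libraries were all below WT, without passing the test (-0.25, SE 0.11, adjusted p = 0.10).

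Tpm2, the β-tropomyosin gene, showed the largest genotype difference of the 9 genes at 6 and 10 weeks. In WT it held 16.9, 14.7 and 19.95 CPM at 3 weeks, 12.3, 11.4 and 16.4 CPM at 6 weeks and 15.9, 11.98 and 10.98 CPM at 10 weeks. In KO it held 99.3, 127 and 91.7 CPM, then 232, 183 and 210 CPM, and then 338, 440 and 366 CPM. No KO library of one age overlapped with another age or with WT, whereas the WT libraries of the 3 ages overlapped. The log2 fold change was 2.63 (SE 0.17, adjusted p = 2.1e-09) in the youngest mice, 3.96 at 6 weeks (SE 0.18, adjusted p = 5.7e-12) and 4.87 at 10 weeks (SE 0.19, adjusted p = 2.5e-13). Without the Myl4-rich libraries the values were 2.72, 3.97 and 4.98. None of its 50-base words occurred in another gene.

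Tpm2 stayed a minor part of all tropomyosin counts. Per exon length it made up 0.357% ± 0.0388, 0.233% ± 0.0438 and 0.280% ± 0.0683 of the summed Tpm1 to Tpm4 level in WT at 3, 6 and 10 weeks (SD, n = 3). In KO its share was 2.18% ± 0.288, 5.19% ± 0.543 and 8.83% ± 0.625. The Tpm1 share was 95.5%, 97.4% and 97.1% in WT and 93.3%, 91.9% and 88.2% in KO. The summed tropomyosin level was 1652 ± 122, 1979 ± 257 and 1605 ± 92.8 CPM per kb in WT and 1671 ± 149, 1380 ± 76.1 and 1482 ± 124 in KO. The sum was therefore lower in every KO library than in any WT library at 6 weeks, while Tpm2's part of it was higher.

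**Figure D3:**
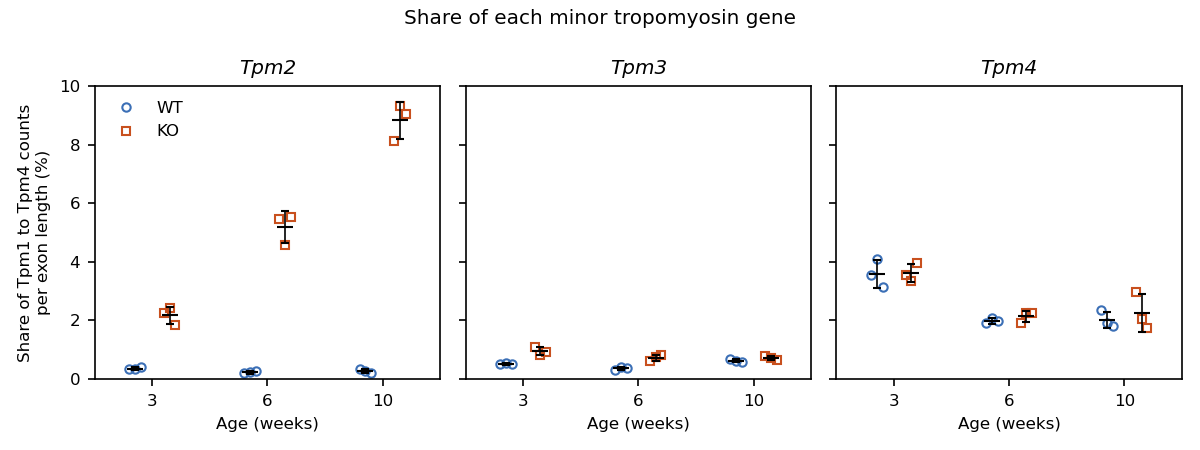
Share in percent of Tpm2, Tpm3 and Tpm4 in the summed counts per exon length of Tpm1 to Tpm4 (vertical axis) against age in weeks; circles WT, squares KO, black bars mean ± SD of 3 libraries. Tpm2 reaches 8.13% to 9.32% in KO at 10 weeks and stays at or under 0.401% in WT. Tpm3, shown without its near copy Tpm3-rs7 described below, stays at or under 1.11% in every library.

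Tpm3 (γ-tropomyosin of slow muscle and, from other start sites and exons, of the cytoskeleton, chr3:90072649-90100902, plus strand) differed between genotypes as counted, but its count depends on a near copy. Of its 50-base words, 23.2% occur in Tpm3-rs7, a locus on chromosome 14 (chr14:113314608-113316713, plus strand) that is annotated as protein coding. The coding sequence of a Tpm3 transcript has 744 bases, of which 741 match the aligned Tpm3-rs7 transcript (99.6%). How reads that match both loci were assigned is not given in the sources used here. Coding bases 1 to 120 of Tpm3 and the bases of Tpm3-rs7 aligned to them are shown from GENCODE M21, with capitals at the positions that differ:
Tpm3: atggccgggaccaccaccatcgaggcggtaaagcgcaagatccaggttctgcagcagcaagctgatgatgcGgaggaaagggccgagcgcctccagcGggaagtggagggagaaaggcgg
Tpm3-rs7: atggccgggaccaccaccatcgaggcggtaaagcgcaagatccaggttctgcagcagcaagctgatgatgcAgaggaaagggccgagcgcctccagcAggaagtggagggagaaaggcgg
The 2 capital positions are the only letters in this stretch by which a read could be told to come from one locus or the other.

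At 3 weeks Tpm3 held 52.7, 51.4 and 52.8 CPM in WT and 102, 90.2 and 95.5 CPM in KO (log2 fold change 0.88, SE 0.11, adjusted p = 8.9e-06). At 6 weeks it held 41.7, 41.6 and 48.4 CPM in WT and 53.6, 63.3 and 65.1 CPM in KO (0.47, SE 0.11, adjusted p = 0.0028). Neither pair of groups overlapped. At 10 weeks WT held 65.7, 58.6 and 60.7 CPM and KO 69.8, 70.7 and 56.4 CPM, which overlapped (0.09, SE 0.11, adjusted p = 0.58).

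Tpm3-rs7 moved the other way in the same libraries. It held 28.4, 31.8 and 23.6 CPM in WT at 3 weeks and 14.95, 17.5 and 18.9 CPM in WT at 6 weeks. In WT at 10 weeks (0.168 to 0.937 CPM) and in all 9 KO libraries (0.111 to 1.03 CPM) it was close to 0. With the counts of both loci added together, an alternative chosen after seeing the data, WT at 3 weeks held 81.1, 83.2 and 76.4 CPM and KO 103, 91.0 and 96.5 CPM. The Tpm3 call was then lost at 3 weeks (log2 fold change 0.27, SE 0.11, adjusted p = 0.097) and at 6 weeks (-0.0026, SE 0.11, adjusted p = 0.99). The KO libraries at 3 weeks were still all above WT. Which locus the reads came from was not tested.

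**Figure D4:**
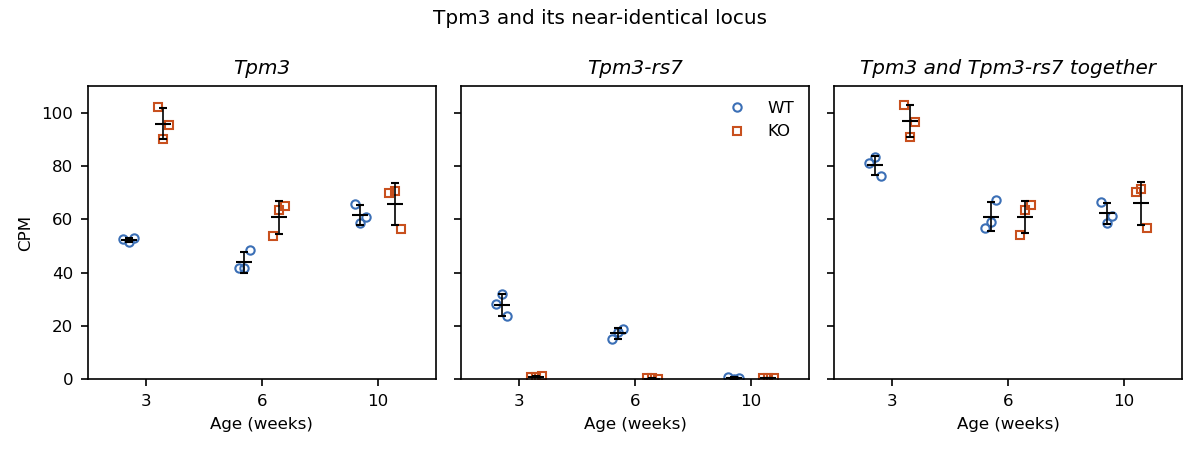
CPM (vertical axis, from 0) of Tpm3, of its near copy Tpm3-rs7 and of both counted together against age in weeks; circles WT, squares KO, black bars mean ± SD of 3 libraries. Tpm3-rs7 is above 14 CPM only in WT at 3 and 6 weeks, and at 6 weeks the genotypes overlap once the loci are added.

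Tpm4 (a mainly cytoskeletal tropomyosin gene, chr8:72134975-72153142, plus strand) differed little between genotypes. At 3 weeks WT held 136, 136 and 118 CPM and KO 118, 134 and 147 CPM (log2 fold change 0.03, SE 0.14, adjusted p = 0.92). At 6 weeks WT held 92.5, 78.7 and 87.9 CPM and KO 61.6, 68.7 and 64.6 CPM, with no overlap (-0.41, SE 0.15, adjusted p = 0.046). That call held in 1 of the 6 fits that left out a library (adjusted p up to 0.17). At 10 weeks WT held 79.7, 65.7 and 67.9 CPM, within the KO range of 53.3 to 93.6 CPM (0.04, SE 0.15, adjusted p = 0.86). Of the 50-base words in Tpm4 15.7% occur in other genes, mostly in Gm7809, and adding the counts of Gm7809 changed none of its calls. An antisense gene, Gm26586, overlaps 134 of its exon bases, and reads of the pair cannot be told apart if strand was not used.

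To compare isoforms within a library, the log2 ratio of counts per exon length was taken for the foetal, slow or minor gene against the adult cardiac one. The KO minus WT difference, averaged over the 3 ages, was tested with a two-sided exact permutation test that relabelled libraries within each age (8000 relabellings, smallest possible p = 0.00025). Tpm2 to Tpm1 was higher in KO by 4.12 (exact permutation p = 0.00025, 0.00042 adjusted over the 5 ratios). Tnni1 to Tnni3 was higher by 2.89, with the same p values from the exact permutation test. Tpm3 to Tpm1 was higher by 0.76, again with these p values, and by 0.41 with Tpm3-rs7 added to Tpm3 (exact permutation p = 0.00075, adjusted p = 0.00125). In these 3 ratios, without Tpm3-rs7 added, every KO library was above every WT library of its age. With it added to Tpm3, 6 of the 8000 relabellings gave a difference at least as large. At 6 weeks Tpm3 with Tpm3-rs7 added then differed by -0.0026 between genotypes and Tpm1 by -0.60 on the log2 scale. Tnnt1 to Tnnt2 (0.12, exact permutation p = 0.19) and Tpm4 to Tpm1 (0.17, exact permutation p = 0.099, adjusted p = 0.12) did not pass, although for Tnnt1 to Tnnt2 the groups did not overlap at 3 weeks.

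The Tpm2 to Tpm1 ratio was -8.07 ± 0.147, -8.72 ± 0.272 and -8.46 ± 0.351 in WT at 3, 6 and 10 weeks on the log2 scale (SD, n = 3). In KO it was -5.43 ± 0.196, -4.15 ± 0.163 and -3.32 ± 0.104. The Tnni1 to Tnni3 ratio was -13.9 ± 0.808, -14.3 ± 0.320 and -14.3 ± 0.863 in WT and -11.1 ± 1.10, -10.9 ± 0.285 and -11.9 ± 0.626 in KO. The adult gene thus led in every library for each ratio, since all were below 0.

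**Figure D5:**
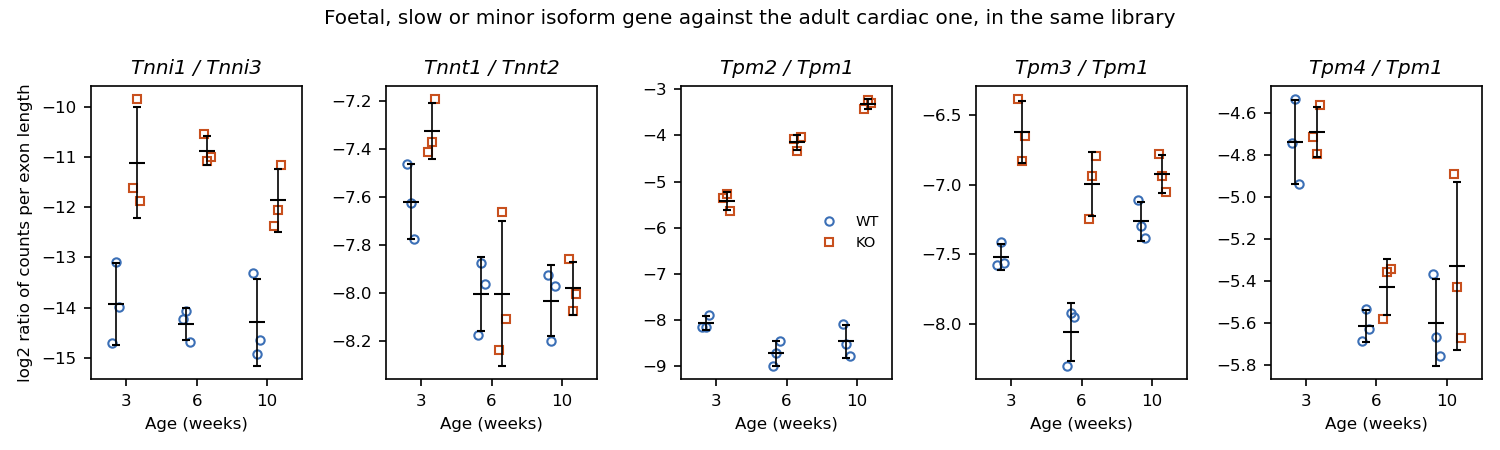
Log2 ratio of counts per exon length (vertical axes, scaled per panel) of the foetal, slow or minor gene to the adult cardiac gene against age in weeks; circles WT, squares KO, black bars mean ± SD of 3 libraries. Tpm2 to Tpm1 lies between -5.65 and -3.24 in KO and between -8.99 and -7.90 in WT. For Tnnt1 to Tnnt2 and Tpm4 to Tpm1 the genotypes overlap at 6 and 10 weeks. Tpm3 to Tpm1 is shown without Tpm3-rs7 added.

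Whether the genotype difference itself changed with age was tested as an interaction. From 3 to 6 weeks 2 of 9 members passed, against 1.59% of all genes called. The Tpm2 difference grew by 1.34 (SE 0.24, adjusted p = 0.0071), and that of Tnni3 moved by -0.71 (SE 0.17, adjusted p = 0.033), a call that was lost without the Myl4-rich libraries (adjusted p = 0.12) and in 8 of 12 fits without 1 library. From 6 to 10 weeks 2 of 9 passed, against 5.75% of all genes. The Tpm2 difference grew by 0.91 (SE 0.24, adjusted p = 0.029) and that of Tnnc1 by 0.75 (SE 0.19, adjusted p = 0.022), with the calls held in 6 and 5 of 12 fits without 1 library. From 3 to 10 weeks 2 of 9 passed, against 5.76% of all genes: Tpm2 by 2.25 (SE 0.24, adjusted p = 6.6e-06) and Tpm3 by -0.79 (SE 0.15, adjusted p = 0.0033). With Tpm3-rs7 counted together with Tpm3 the latter was -0.18 (adjusted p = 0.55).

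Within WT, 3 of the cardiac genes were called higher at 6 than at 3 weeks, and Tpm1 did not pass (0.29, SE 0.11, adjusted p = 0.14). Tnnt2 rose by 0.55 (SE 0.12, adjusted p = 0.011), Tnni3 by 0.49 (SE 0.12, adjusted p = 0.021) and Tnnc1 by 0.56 (SE 0.13, adjusted p = 0.019) on the log2 scale, while Tpm4 fell by 0.59 (SE 0.15, adjusted p = 0.021), which made 4 of 9 called against 5.18% of all genes. Leaving out 1 of the 6 libraries kept these calls in 4, 3, 2 and 1 of the 6 fits. From 6 to 10 weeks Tnnc1 fell by 0.45 (SE 0.13, adjusted p = 0.038, kept in 1 of 6 fits) and Tpm3 rose by 0.49 (SE 0.11, adjusted p = 0.0065), against 8.77% of all genes. With Tpm3-rs7 added, the Tpm3 change was 0.03 (adjusted p = 0.92). From 3 to 10 weeks only Tpm4 passed, lower by -0.87 (SE 0.15, adjusted p = 0.00031), against 16.5% of all genes. With Tpm3-rs7 added, Tpm3 was also called lower over that interval (-0.37, SE 0.11, adjusted p = 0.024) and from 3 to 6 weeks (-0.40, SE 0.11, adjusted p = 0.037).

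Within KO, Tnnt2, Tnni3, Tnnc1 and Tpm1 did not pass between ages, with log2 changes from -0.30 to 0.30 (adjusted p from 0.10 to 0.95). Tpm2 rose by 0.98 (SE 0.16, adjusted p = 0.00051) from 3 to 6 weeks and by 0.87 (SE 0.16, adjusted p = 0.0015) from 6 to 10 weeks. Tnnt1, Tpm3 and Tpm4 fell from 3 to 6 weeks, by 0.65 (SE 0.15, adjusted p = 0.0060), 0.66 (SE 0.11, adjusted p = 0.00035) and 1.03 (SE 0.15, adjusted p = 9.7e-05). That made 4 of 9 called against 11.6% of all genes, and Tpm2 alone was called from 6 to 10 weeks against 12.7%. The Tnnt1 call was lost without the Myl4-rich libraries (-0.39, adjusted p = 0.16). From 3 to 10 weeks the same 4 genes passed, Tpm2 at 1.85 (SE 0.16), Tnnt1 at -0.69 (SE 0.15), Tpm3 at -0.55 (SE 0.11) and Tpm4 at -0.86 (SE 0.15), against 20.1% of all genes. The Tpm3 changes within KO were called with Tpm3-rs7 added as well (-0.67 and -0.55).

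The fast skeletal troponin genes were near the limit of counting. Tnnc2 (fast TnC) had at most 0.234 CPM and was not tested, and Tnnt3 (fast TnT) lay between 0.263 and 1.61 CPM with no call. Tnni2 (fast TnI) held 0.940 to 3.17 CPM in WT and 0 to 1.74 CPM in KO, and it was called lower at 6 weeks (-1.70, SE 0.59, adjusted p = 0.042). Of the 10 skeletal muscle markers, 5 passed the filter. Of these, 2, 1 and 3 were called higher in KO at 3, 6 and 10 weeks and 0 lower, against 15.3%, 23.8% and 29.3% of all genes called. The median log2 fold changes were -0.05, 0.12 and 0.91. The summed level of all 10 ran from 45.0 to 89.1 CPM in WT and from 58.7 to 236 CPM in KO, nearly all of it from genes other than the fast myosins Myh1, Myh2 and Myh4, which stayed at or under 0.443 CPM. Mybpc2, also in this list, held 27.7 to 78.5 CPM in WT and 39.1 to 77.2 CPM in KO. Myl1, a skeletal muscle light chain gene, held 6.17 to 20.6 CPM in WT and 12.8 to 154 CPM in KO. It was called higher in KO at each age (2.34, 2.87 and 2.13, SE 0.64, 0.64 and 0.61). Among KO libraries the Myl4-rich one held most Myl1 at each age (53.2, 117 and 154 CPM). The others held 12.8 and 41.6 CPM, 41.8 and 51.1 CPM, and 63.9 and 33.2 CPM. Mylpf, another skeletal light chain gene, did not pass and had log2 fold changes of -0.68, -0.45 and -0.52. The part of skeletal muscle tissue in the Tpm2 and Tnni1 results was not tested beyond these values.

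Of 17 other thin filament genes, 6 were called higher and 1 lower in KO at 3 weeks, 6 and 1 at 6 weeks, and 7 and 2 at 10 weeks, while the remaining genes did not pass. The median log2 fold change was 0.31, 0.16 and 0.21, beside 0.00, 0.00 and -0.03 over all genes. For this and the following lists, the share of all genes called is 15.3%, 23.8% and 29.3% at the 3 ages. Acta1, the skeletal α-actin that the foetal heart also makes, had log2 fold changes of 3.51 (SE 0.30), 4.03 (SE 0.31) and 4.94 (SE 0.32), from 265 to 669 CPM in WT and 3421 to 19558 CPM in KO. Actc1, the cardiac α-actin, was higher at each age (0.70, 0.59 and 0.81, each SE 0.14). Neb, the nebulin gene, was higher by 1.87 (SE 0.35) at 3 weeks, Cfl2, a cofilin, by 0.94 (SE 0.19) at 6 weeks, and Lmod2, the leiomodin that lengthens thin filaments, by 1.47 (SE 0.16) at 10 weeks. Tmod4, a tropomodulin of skeletal muscle, was lower at each age (-0.86, -1.21 and -1.22), and Lmod3 was lower at 10 weeks (-0.57, SE 0.16).

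Among 9 tested thick filament genes, 2 were higher and 1 lower at 3 weeks, 1 and 3 at 6 weeks, and 3 and 1 at 10 weeks, with median log2 fold changes of 0.50, 0.14 and 0.91. Myh7, the slow or β-myosin heavy chain that is the foetal ventricular form in mice, differed by 0.56 (SE 0.24, adjusted p = 0.12), 1.40 (SE 0.24, adjusted p = 0.00041) and 2.94 (SE 0.25, adjusted p = 2.9e-07). Myh6, the adult α-myosin heavy chain, was called at 3 weeks (0.51, SE 0.13), and Mybpc3, cardiac myosin-binding protein C, at 3 weeks (0.50) and 10 weeks (0.91). Myh7b was lower at each age (-0.65, -1.24 and -1.02), and the ventricular light chain gene Myl3 was lower at 6 weeks (-0.70, SE 0.13).

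Splicing decides which Tnnt2 and tropomyosin proteins are made, and it cannot be read from counts per gene. Of 11 splicing factors known to act on these transcripts, 1 was higher and 1 lower at 3 weeks, and 2 higher and 1 lower at both later ages, with medians of 0.15, 0.08 and 0.14. These counts lie near the share over all genes. Rbfox1 was lower in KO at each age (-0.95, -1.34 and -1.23, SE 0.17, 0.17 and 0.18). Rbm24 was higher at 3 and 10 weeks (0.56 and 0.61, each SE 0.10), Celf2 at 6 and 10 weeks (0.78 and 1.12, SE 0.15 and 0.16), and Rbfox2 at 6 weeks (0.35, SE 0.11). Rbm20, Celf1 and Mbnl1 were not called at any age.

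Of 16 listed transcription factors of sarcomere genes, 14 were tested, since the symbols Mkl1 and Mkl2 matched no identifier. Among those tested, 4 were higher and 1 lower at 3 weeks, 5 were higher at 6 weeks, and 3 were higher and 1 lower at 10 weeks. The medians were 0.33, 0.19 and -0.06. At 10 weeks the share called was that over all genes. Tead1, a factor of the MCAT element, was higher at 10 weeks (0.67, SE 0.11) and also at 3 and 6 weeks (0.45 and 0.53, each SE 0.11). Tbx20 was higher at each age (0.66, 0.88 and 0.97), Srf, which binds the CArG box, at 3 weeks (0.58, SE 0.10), and Mef2c at 6 weeks (0.81, SE 0.11). Thrb, a thyroid hormone receptor, was lower at 3 weeks (-0.51, SE 0.16) and Mef2a at 10 weeks (-0.80, SE 0.17).

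Of 12 kinases and phosphatases that act on troponin or tropomyosin, 1 was higher at 3 weeks, 3 at 6 weeks and 6 at 10 weeks. The medians were 0.15, 0.13 and 0.41. The share called was below or near that over all genes at 3 and 6 weeks. Prkg1, the cGMP-dependent kinase, was higher at each age (0.87, 1.07 and 2.05, SE 0.24, 0.24 and 0.26), Prkca, protein kinase C α, at 6 weeks (0.64, SE 0.15), and Ppp2ca, a catalytic subunit of phosphatase 2A, at 10 weeks (0.60, SE 0.13). Prkaca, the catalytic subunit of protein kinase A that phosphorylates cardiac TnI, was not called (-0.21, -0.22 and -0.19; adjusted p = 0.32, 0.28 and 0.31).

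Tpm1, Tpm2 and Tpm4 are also made by smooth muscle and fibroblasts, so the markers of those cells are given beside them. The summed level of the 10 smooth muscle and pericyte markers ran from 1423 to 1963 CPM in WT and from 758 to 1440 CPM in KO, with group means of 1916, 1473 and 1642 CPM in WT and 1330, 990 and 865 CPM in KO at 3, 6 and 10 weeks. Of these genes 1 was higher and 3 lower at 3 weeks, 1 and 5 at 6 weeks, and 2 and 6 at 10 weeks. Acta2 was lower by -0.94, -2.23 and -2.39, and Myh11, which defines mature smooth muscle, was not called (-0.42, 0.01 and -0.20). Cnn1, calponin, was higher by 5.04, 5.79 and 5.23 (SE 1.41, 1.44 and 1.41), unevenly between libraries. It held 5.08, 110 and 6.64 CPM in KO at 3 weeks, 69.0, 59.8 and 39.7 CPM at 6 weeks and 72.6, 69.2 and 3.44 CPM at 10 weeks. In WT it ran from 0.440 to 1.85 CPM. The summed level, most of it from Acta2, Rgs5 and Abcc9 in WT at 3 weeks, was lower in every KO library than in any WT library of the same age. The part of smooth muscle in the tropomyosin results was not tested.

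The summed 11 fibroblast markers had group means of 2943, 2377 and 2127 CPM in WT and 3147, 3448 and 2583 CPM in KO, and 2 were higher and 3 lower at 3 weeks, 8 and 1 at 6 weeks, and 4 and 1 at 10 weeks. The 7 atrial markers summed to 30.01 to 89.99 CPM in WT and 38.4 to 2808 CPM in KO, with the 3 Myl4-rich libraries highest. Of the 6 tested, 0, 0 and 2 were called higher and 0 lower, with median log2 fold changes of 1.67, 4.35 and 5.01. Sln held 56.6, 190 and 506 CPM in the Myl4-rich libraries, at most 3.33 CPM in other KO libraries and at most 5.66 CPM in WT. Bmp10 was at 0 in all KO libraries and at most 0.112 CPM in WT. Col1a2, a fibrillar collagen gene, was higher at each age (0.70, 1.46 and 0.83, each SE 0.15), and Dpt was lower (-0.79, -0.91 and -0.73, each SE 0.13). The part of fibroblasts and of atrial tissue in the member results was not tested, apart from the repeat without the Myl4-rich libraries, in which 5, 6 and 3 members were called at 3, 6 and 10 weeks.

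The genes most like each member over the 18 libraries were named by the smallest root mean square difference of mean-centred log2 CPM, as a description with no test. For Tpm2 they were Nlrc3 (0.26), Acta1 (0.42) and Shisa3 (0.46), beside a median of 2.04 over all genes and an SD of 1.996 for the Tpm2 profile itself. For Tnni3 they were Cox5b (0.09), Mgst3 (0.10) and Cox4i1 (0.10), and for Tpm1 Rpl32 (0.08), Slc25a4 (0.09) and Atp6v1g1 (0.09). For Tnnc1 they were Pfdn2, Myl2 and Rps13 (0.11 to 0.13), and for Tnnt2 Nsfl1c, Map1lc3a and Fam162a (0.11 to 0.13). Tnnt1 was closest to Chka, Calm3 and Plekhg2 (0.20 to 0.21), Tpm3 to Plat, Arhgap23 and Bves (0.17 to 0.18) and Tpm4 to Map1b, Mcam and Dstn (0.16 to 0.18). For Tnni1 the nearest were Ttc39aos1, Ttc39a and Hsd17b7 at 0.57, beside an SD of 1.15 for its own profile. Apart from Tpm2, the profiles of the other members had SDs from 0.22 (Tnnt2) to 0.45 (Tpm4). The distances are therefore not comparable between members. These distances share depth and scaling with the members, and low counts widen them. No member was among the 3 genes most like another.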

How the data were processed

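Total RNA was extracted from frozen tissue and made into NEBNext Ultra II libraries, per the labels' protocols. Per the submitters' processing notes, Trimmomatic 0.36, STAR 2.5.2b, featureCounts and Subread 1.5.2 were used with GRCm38. The values deposited by the authors are raw counts per gene, with no normalization. Whether strand was used, how multimapping reads were handled and which annotation release was counted are not given in the sources used here.

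Of 49315 identifiers, 49056 matched GENCODE M21, and start and end of all 9 members were identical to it. Counts were analysed with edgeR 4.0.16 in R 4.3.3: filterByExpr (minimum count 10, minimum total 15) kept 15778 genes, TMM scaled the libraries, and 1 robust quasi-likelihood model with the 6 groups was fitted to 18 libraries. Every adjusted p for a gene is from this fit, or from a named alternative, with Benjamini-Hochberg adjustment over all genes tested. Log2 CPM used a prior count of 2, and ratios an added count of 0.5. Words of 50 bases shared with other genes were counted in GENCODE M21 transcripts. Alternatives were RLE and upper quartile scaling, no filter (29690 genes), mitochondrially encoded genes left out, limma voom (limma 3.58.1), DESeq2 1.42.0, only the groups compared, a replicate block, and fits without single libraries or the libraries over 50 CPM of Myl4. The steps were tested on simulated data.

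The members, the gene lists and the tests were chosen with earlier results of these data known. The text names all 9 members, Csrp3, the fast troponin genes, Tpm3-rs7, the 3 genes most like each member, and up to 2 called genes per direction with the smallest p in each list and age. Names beyond this rule (Gm7809, which shares words with Tpm4, uncalled, repeated or further list genes, and markers at 0) were chosen after their values were seen. Replicate libraries differed beyond sampling noise, with chi-squared per degree of freedom from 7.56 to 70.5. No table column was left unused.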

Additional observations from a re-analysis of the deposited data

Results flagged for a closer look

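For 4 of the genes the interaction term of the edgeR fit over all genes was called between at least 1 pair of ages. In each pair 2 of 9 members were called. The share of all genes called was 1.59%, 5.75% and 5.76% at 6 against 3, 10 against 6 and 10 against 3 weeks. The Tpm2 difference between KO and WT was larger at 6 than at 3 weeks (1.34, SE 0.24), at 10 than at 6 weeks (0.91, SE 0.24) and at 10 than at 3 weeks (2.25, SE 0.24). Of these calls, that at 10 against 6 weeks held in 6 of 12 fits without 1 library, and the others held in all 12. For Tnni3 the difference was more negative at 6 than at 3 weeks (-0.71, SE 0.17), a call held in 4 of 12 such fits. For Tnnc1 it was higher at 10 than at 6 weeks (0.75, SE 0.19), and the estimate had opposite signs at these ages. The Tnnc1 call held in 5 of 12 such fits. For Tpm3 the genotype difference was smaller at 10 than at 3 weeks (-0.79, SE 0.15), with the near copy Tpm3-rs7 not counted in. With Tpm3-rs7 added it was not called (-0.18, edgeR adjusted p = 0.55).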

How the results depend on the processing

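Of the 37 calls of members over the 12 contrasts, refits under 9 settings gave the same call in 326 of 333 cases, lost it in 7 and reversed none. This tally leaves out the fits with near copies added. With Tpm3-rs7 added, the Tpm3 calls were lost in KO against WT at 3 and 6 weeks. They were also lost in WT at 10 against 6 weeks and in the interaction at 10 against 3 weeks. Fits without 1 library kept 203 of 258 and lost 55. Same-numbered WT and KO libraries did not deviate together over all genes (correlations from -0.08 to 0.09). These correlations cannot exclude a pairing that is weak or limited to some genes, and the labels do not name one. With the replicate block the counts stayed at 5, 7 and 3 in KO against WT and 2 in each interaction. Without 1 library the counts of called members ran from 4 to 5, 5 to 7 and 2 to 4 in KO against WT at 3, 6 and 10 weeks. They ran from 1 to 4, 0 to 3 and 2 to 2 in the interactions at 6 against 3, 10 against 6 and 10 against 3 weeks, from 0 to 4, 1 to 4 and 1 to 2 in WT over these intervals, and from 4 to 4, 1 to 2 and 4 to 4 in KO. Without 1 library the log2 ratio differences ran from 4.06 to 4.18 (Tpm2 to Tpm1), 2.68 to 3.06 (Tnni1 to Tnni3), 0.72 to 0.81 (Tpm3 to Tpm1), 0.06 to 0.16 (Tnnt1 to Tnnt2) and 0.094 to 0.22 (Tpm4 to Tpm1).

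In the interaction at 6 against 3 weeks, 1 member was called with upper quartile normalization, 1 without the Myl4-rich libraries, 1 with only the groups compared, 6 with no filter on low counts and 6 with DESeq2. In WT at 10 against 3 weeks, 2 were called with no filter. With Tpm3 and Tpm3-rs7 counted together, 1 was called in the interaction at 10 against 3 weeks, 1 in WT at 10 against 6 weeks and 2 in WT at 10 against 3 weeks, and Tpm3 reversed to -0.0026 at 6 weeks in KO against WT, and over the interval from 3 to 10 weeks in WT to -0.37. These changes follow from the added counts; the cause of the others was not tested.

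The counts over all genes also moved by over 1.5 times. With no filter they were 880 (251 as reported), 1550 (908) and 1479 (909) in the interactions at 6 against 3, 10 against 6 and 10 against 3 weeks and 1404 (818) in WT at 6 against 3 weeks. With DESeq2 they were 661, 1475 and 1299 in the first, the second and the last of these. With only the groups compared they were 484 in the interaction at 10 against 3 weeks, 1495 in WT at 6 against 3 weeks, 2463 (1383) in WT at 10 against 6 weeks, 874 (1996) in KO at 10 against 6 weeks and 1405 (3179) in KO at 10 against 3 weeks. Without the Myl4-rich libraries they were 160 in the interaction at 6 against 3 weeks, 1099 (1829) in KO at 6 against 3 weeks and 1241 in KO at 10 against 6 weeks. Without 1 library the counts over all genes ran from 1309 to 2542 (2419 as reported), 2653 to 3377 (3751) and 3511 to 4787 (4625) in KO against WT at 3, 6 and 10 weeks, with the lowest at 3 weeks without WT replicate 1. The interactions, in the order above, had 84 to 426, 460 to 1598 and 552 to 1497. The WT counts spanned 199 to 1313, 555 to 1185 and 1462 to 2743 (2609) at 6 against 3, 10 against 6 and 10 against 3 weeks, with the lowest without WT 3 weeks replicate 2, WT 6 weeks replicate 1 and WT 3 weeks replicate 1. The KO counts over these intervals spanned 1089 to 1620, 983 to 2634, and 2230 to 3319. The background shares in the text move with these counts. At 3 to 11 reads in WT, Tnni1 fold changes are imprecise.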
